A study of Mus musculus with 13 samples.

Results

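The Toll-like receptors described here are 10 mouse genes, Tlr1 to Tlr9 and Tlr13, taken by name from a table of estimated RNA-seq counts for 48795 gene identifiers. All 10 had a row, and 9 had enough counts to be tested between the groups. RNA was taken from the right brain hemisphere of 13 mice at postnatal day 11, without the olfactory bulbs and the cerebellum. The nlsYAP5SA group held 5 mice (NexCre +/-, YAP5SAnls +/-), in which Cre made under the NEX (Neurod6) promoter of neuronal precursors and their progeny switched on nlsYAP5SA, a YAP1 with 5 serines changed to alanine and a nuclear localisation signal. The control group held 5 littermates with the same transgene and no Cre (NexCre -/-, YAP5SAnls +/-). The mice of these groups came from more than 1 mating. The labels do not assign mice to matings, so litter could not be entered in the tests. The C57BL/6 group held 3 wild-type mice of the same age that were not littermates and carried neither allele. All 3 groups were on the C57BL/6J background. Since the Cre is a knock-in at Neurod6, the nlsYAP5SA mice also had 1 Neurod6 allele fewer than the controls, and the C57BL/6 mice differed from the controls in the transgene. The question for these genes was whether turning on YAP1 in the NEX lineage went with other receptor levels in the whole hemisphere, and whether surface and endosomal receptors moved alike.

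Toll-like receptors are membrane proteins of innate immunity whose leucine-rich ectodomain binds microbial products and whose cytoplasmic TIR domain recruits adaptors that lead to NF-kB and interferon regulatory factors. One class sits on the cell surface: Tlr2 binds bacterial lipopeptides as a dimer with Tlr1 or Tlr6, Tlr4 binds lipopolysaccharide with its partner MD-2 (Ly96), and Tlr5 binds flagellin. The other class sits in endosomes and reads nucleic acids: Tlr3 double-stranded RNA, Tlr7 and Tlr8 single-stranded RNA, Tlr9 unmethylated CpG DNA and Tlr13, which is found in mice but not in humans, bacterial ribosomal RNA. In the brain, microglia hold most of these receptors, while Tlr3 is also made by astrocytes and neurons.

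In GRCm38 the surface receptors lie at chr5:64924679-64933563 (Tlr1, minus strand), chr3:83836272-83841767 (Tlr2, minus), chr4:66827584-66930284 (Tlr4, plus), chr1:182954788-182976044 (Tlr5, plus) and chr5:64952031-64960097 (Tlr6, minus). The endosomal receptors lie at chr8:45395665-45411080 (Tlr3, minus), chrX:167304929-167330558 (Tlr7, minus), chrX:167242696-167264329 (Tlr8, minus), chr9:106222598-106226883 (Tlr9, plus) and chrX:106143204-106160493 (Tlr13, plus). Tlr1 and Tlr6 are neighbours, and Tlr7, Tlr8 and Tlr13 are X-linked. Exons of Tlr3 overlap those of Gm45542 on the opposite strand. Whether the counting used strand is not given in the sources used here, so reads of these 2 genes may not have been told apart.

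Tlr1 and Tlr6 share a coding stretch, and it is shown because the counts of both genes depend on it. Among the 45 pairs of members, the longest identical run between the longest GENCODE M21 transcripts was 229 bases, between Tlr1 and Tlr6, and the next pair shared 18 bases (Tlr4 and Tlr6). The run is in capitals, with 25 bases of each gene on either side in lower case, and both windows lie in coding exons on the minus strand, at chr5:64925512-64925790 (Tlr1) and chr5:64953803-64954081 (Tlr6).
Tlr1: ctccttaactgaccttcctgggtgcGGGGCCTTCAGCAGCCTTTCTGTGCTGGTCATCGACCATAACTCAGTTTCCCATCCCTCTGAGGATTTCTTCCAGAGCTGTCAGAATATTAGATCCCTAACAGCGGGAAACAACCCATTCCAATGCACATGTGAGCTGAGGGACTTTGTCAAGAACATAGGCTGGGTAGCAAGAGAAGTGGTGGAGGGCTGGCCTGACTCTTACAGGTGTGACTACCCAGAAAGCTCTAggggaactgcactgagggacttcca
Tlr6: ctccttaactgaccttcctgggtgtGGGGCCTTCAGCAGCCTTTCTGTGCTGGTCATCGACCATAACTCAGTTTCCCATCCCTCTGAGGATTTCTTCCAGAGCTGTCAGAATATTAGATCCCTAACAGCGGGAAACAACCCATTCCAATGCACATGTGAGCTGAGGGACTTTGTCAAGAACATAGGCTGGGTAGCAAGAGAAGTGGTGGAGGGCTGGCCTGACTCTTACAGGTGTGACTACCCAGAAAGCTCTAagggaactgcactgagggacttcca
A read that falls wholly inside the capitals fits both genes equally, and the estimated counts of Tlr1 and Tlr6 were fractional in 13 of 13 samples while their sum was a whole number (within 0.011) in 13 of 13. The other 8 members had whole counts in all 13 samples.

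Stretches of RefSeq promoters (GRCm38.p6) are shown for 3 receptors that differed between the groups. Windows of 250 bases before to 50 after the start of the gene were searched on both strands for a 10-letter NF-kB consensus, for GAGGAA, the core bound by the myeloid factor PU.1, and for GGAATG, the motif of the TEAD factors through which YAP1 acts. The NF-kB consensus was in 8.46% of 32851 promoter windows and in 2 of the 8 receptor windows that were matched, those of Tlr2 and Tlr3. The letters GAGGAA were in 28.3% of all windows and in 4 of these 8, those of Tlr1, Tlr8, Tlr9 and Tlr13. The letters GGAATG were in 14.7% of all windows and in 0 of these 8, too few windows to set this apart from that share. Tlr4 and Tlr7 had no window and were not searched. At most 120 bases before the most upstream annotated start follow, with matches in capitals: 2 overlapping NF-kB matches at Tlr2 (chr3:83841768-83841858, minus strand), and GAGGAA at Tlr9 (chr9:106222478-106222597, plus) and Tlr13 (chrX:106143084-106143203, plus).
Tlr2: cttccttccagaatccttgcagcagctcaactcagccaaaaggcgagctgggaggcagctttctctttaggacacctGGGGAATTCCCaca
Tlr9: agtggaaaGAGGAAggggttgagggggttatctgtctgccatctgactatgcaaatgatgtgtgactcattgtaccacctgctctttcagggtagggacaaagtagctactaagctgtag
Tlr13: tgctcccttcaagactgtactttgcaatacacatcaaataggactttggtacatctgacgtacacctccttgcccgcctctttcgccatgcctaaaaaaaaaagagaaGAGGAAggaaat
A match is a description of these letters, not a bound site.

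The 13 libraries held 20871566 to 25524349 estimated counts each. Neurod6, the gene under which Cre was made, was lower in nlsYAP5SA samples, with a log2 fold change of -0.98 (SE 0.09, edgeR adjusted p = 2.65e-05), and Yap1 was higher by 0.23 (SE 0.06, edgeR adjusted p = 0.0361). Y-linked genes (Ddx3y, Eif2s3y, Kdm5d and Uty) were above 5 CPM (estimated counts scaled to the library total) in 5 of 5 controls, 2 of 5 nlsYAP5SA samples (replicates 3 and 4) and 2 of 3 C57BL/6 samples. Mice of both sexes were used, and the labels do not give the sex of each. The genotype and the presence of Y-linked reads were therefore partly aligned, so counts of called receptors and pathway genes are also given with the Y-linked level as a covariate and for the samples with Y-linked reads alone. Microglia markers were higher in nlsYAP5SA samples: 8 of 12 were called higher (among them Aif1, Csf1r, Cx3cr1, Itgam, Ptprc, Tmem119 and Selplg), 0 were lower, and Fcrls, P2ry12, Siglech and Gpr34 were not called. Their summed level was 359 to 447 CPM in controls, 484 to 651 in nlsYAP5SA and 380 to 444 in C57BL/6 samples. Of the border macrophage markers 1 of 6 was called (Cd163, higher), with summed levels of 14.2 to 23.3 in controls and 17.9 to 27.5 in nlsYAP5SA samples, and the others ran from log2 fold changes of -0.26 to 0.36. Of 6 monocyte and neutrophil markers only Ccr2 could be tested, and the list had a summed level of 0.283 to 0.665 in controls and 0.823 to 4.99 in nlsYAP5SA samples, and Ly6g was at 0 throughout. Ccr2 had 0 to 12.32 estimated counts in controls and 6.05 to 92.64 in nlsYAP5SA samples, and since it passed the filter on low counts through 4 nlsYAP5SA samples and 1 control, its call as higher depends on the difference itself. The 6 lymphocyte markers stayed at 0.783 CPM or less in sum and were not tested. Of 6 astrocyte markers 2 were called higher (Gja1 and Slc1a3), with summed levels of 2756 to 5228 CPM in controls and 4039 to 5932 in nlsYAP5SA samples. Of 6 endothelial markers 2 were called lower (Cldn5 and Cdh5), with sums of 195.7 to 233.0 and 153.9 to 203.6. Of 6 choroid plexus markers 1 was called higher (Folr1, which passed the filter in 5 nlsYAP5SA samples and 2 controls), with sums that ran from 10.05 to 233.4 in controls, 12.9 to 306.2 in nlsYAP5SA and 10.5 to 263.8 in C57BL/6 samples. Of the neuron and the oligodendrocyte lineage markers, 6 each, 0 were called. The part of these cell types in the receptor results was not tested. In hemisphere RNA, more cells of a type and more RNA per cell cannot be told apart, and the part that the microglia markers had in the receptor results was examined only through the values per microglia marker count given below.

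Tlr3 was the most abundant receptor per length in controls and C57BL/6 samples, and in nlsYAP5SA samples its lead over Tlr7 was within their spread. On the scale of CPM per kilobase of exon, control levels were 1.61 ± 0.46 (SD, n = 5) for Tlr3, 0.822 ± 0.171 for Tlr7, 0.569 ± 0.134 for Tlr13, 0.453 ± 0.176 for Tlr2, 0.298 ± 0.097 for Tlr4, 0.271 ± 0.051 for Tlr9, 0.212 ± 0.108 for Tlr1, 0.194 ± 0.044 for Tlr6, 0.151 ± 0.038 for Tlr5 and 0.031 ± 0.024 for Tlr8. In controls the ranges of neighbours in this order overlapped except at its ends, where Tlr3 lay above Tlr7 and Tlr5 above Tlr8 without overlap. In nlsYAP5SA samples the same scale gave 1.98 ± 0.18 for Tlr3 and 1.97 ± 0.44 for Tlr7, whose ranges overlapped. Tlr7 lay above Tlr3 in 3 of these 5 samples and in 0 of the 5 controls, and without nlsYAP5SA replicate 3 the means were 2.06 for Tlr3 and 2.15 for Tlr7. Tlr2 came next at 1.51 ± 0.34, above Tlr13 at 1.21 ± 0.32, again with overlap, and below them a gap without overlap separated Tlr9 (0.586 ± 0.131), Tlr4 (0.562 ± 0.168), Tlr1 (0.364 ± 0.140) and Tlr6 (0.357 ± 0.089). Tlr5 at 0.130 ± 0.044 and Tlr8 at 0.108 ± 0.081 were lowest, below Tlr6 without overlap, and overlapped each other. The C57BL/6 order ran Tlr3, Tlr7, Tlr13, Tlr2, Tlr9, Tlr4, Tlr6, Tlr1, Tlr5 and Tlr8, from 1.8 ± 0.19 down to 0.028 ± 0.016 (SD, n = 3). In every group, then, the nucleic acid receptors Tlr3 and Tlr7 led the order per length.

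**Figure D1:**
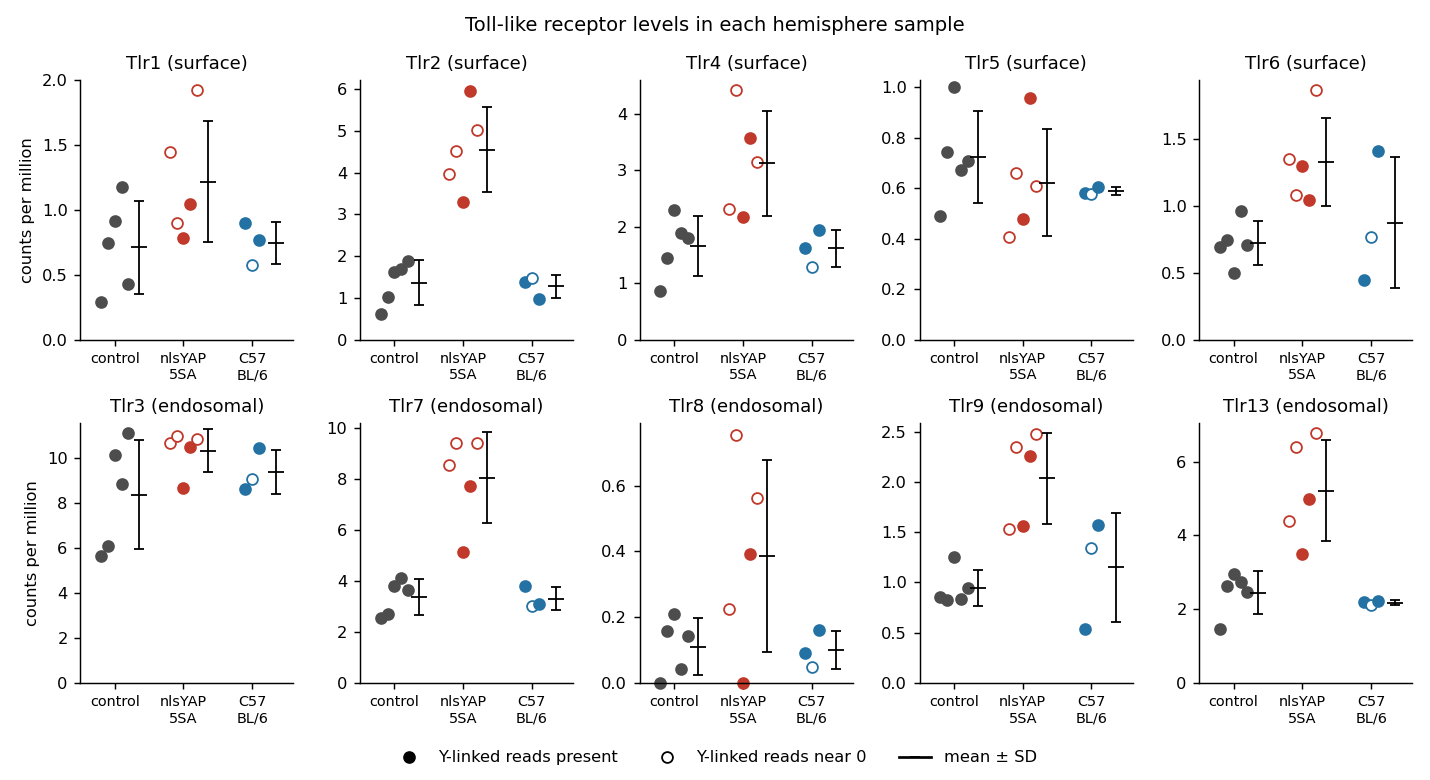
Level of each Toll-like receptor in CPM (y axis, from 0) in every sample of the 3 groups (x axis), with the mean ± SD in black; filled points are samples with Y-linked reads and open points are samples in which these were near 0. The nlsYAP5SA points of Tlr2, Tlr6, Tlr7, Tlr9 and Tlr13 all sit above the control points, while those of Tlr1, Tlr3, Tlr4, Tlr5 and Tlr8 overlap them.

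The first comparison asked which receptors differed between nlsYAP5SA mice and their Cre-negative littermates. Tlr2, Tlr4 and Tlr6 of the surface class and Tlr7, Tlr9 and Tlr13 of the endosomal class were higher in nlsYAP5SA samples, by 1.83-fold (Tlr6) to 3.35-fold (Tlr2). No receptor was called lower. Tlr1, Tlr3 and Tlr5 were not called, and Tlr8 had too few counts for the test. Calls were 6 of the 9 receptors tested, in a comparison in which 10.8% of 16315 genes were called in either direction, 7.36% higher and 3.44% lower. The median log2 fold change was 0.91 over the 9 receptors and -0.01 over all genes tested.

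Among the surface receptors, Tlr2, the lipopeptide receptor that pairs with Tlr1 or Tlr6, changed most. Its level in CPM was 0.613, 1.02, 1.63, 1.68 and 1.89 in control replicates 1 to 5 and 3.98, 4.52, 3.29, 5.96 and 5.01 in nlsYAP5SA replicates 1 to 5. Every nlsYAP5SA sample lay above every control, and the log2 fold change was 1.74 (SE 0.26, edgeR adjusted p = 0.000749).

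Tlr4, the lipopolysaccharide receptor, was at 0.859, 1.45, 2.29, 1.89 and 1.79 CPM in controls and at 2.31, 4.43, 2.17, 3.57 and 3.14 in nlsYAP5SA samples. The groups overlapped, with 4 of 5 nlsYAP5SA samples above the highest control and replicate 3 within the control range. The log2 fold change was 0.91 (SE 0.26, edgeR adjusted p = 0.0399). This call ended when 1 of 7 mice was left out: without control replicates 1, 2, 4 or 5 the adjusted p was 0.0611, 0.0907, 0.0660 and 0.0681, and without nlsYAP5SA replicates 2, 4 or 5 it was 0.112, 0.0768 and 0.0841, with log2 fold changes of 0.75 to 0.97.

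Tlr6, a partner of Tlr2, was at 0.695, 0.744, 0.50, 0.966 and 0.709 CPM in controls and at 1.36, 1.08, 1.3, 1.04 and 1.87 in nlsYAP5SA samples. All nlsYAP5SA samples were above all controls, by a narrow margin between nlsYAP5SA replicate 4 and control replicate 4. The log2 fold change was 0.87 (SE 0.23, edgeR adjusted p = 0.0271). The call ended without control replicates 1, 2, 3 or 5 (adjusted p = 0.0534, 0.0558, 0.0568 and 0.0593) and without nlsYAP5SA replicates 1 or 5 (0.0584 and 0.0797), at log2 fold changes of 0.72 to 0.88.

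Tlr1, the other partner of Tlr2, was at 0.286, 0.744, 0.917, 1.18 and 0.425 CPM in controls and at 1.45, 0.895, 0.780, 1.04 and 1.92 in nlsYAP5SA samples. The groups overlapped, with 2 of 5 nlsYAP5SA samples above every control, and the log2 difference of 0.76 had a wide error (SE 0.36, edgeR adjusted p = 0.214). The sum of Tlr1 and Tlr6 does not depend on how shared reads were divided between them. Summed counts were 24, 38, 34, 51 and 24 in controls and 62, 42, 48, 48 and 81 in nlsYAP5SA samples. The summed level gave a log2 fold change of 0.82 (SE 0.24, edgeR adjusted p = 0.0477). The share of the sum that was assigned to Tlr1 ran from 31.0% to 66.2% in controls, from 38.0% to 51.7% in nlsYAP5SA and from 34.9% to 67.0% in C57BL/6 samples.

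Tlr5, the flagellin receptor, was the surface receptor whose mean was not higher. Its level was 0.491, 0.744, 1.0, 0.672 and 0.709 CPM in controls and 0.407, 0.659, 0.477, 0.957 and 0.609 in nlsYAP5SA samples, and the groups overlapped through most of their range. The log2 difference was -0.22 (SE 0.27, edgeR adjusted p = 0.681). Its 9 to 24 estimated counts per sample limited what could be detected.

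Among the 4 endosomal receptors tested, Tlr7, a sensor of single-stranded RNA, had the largest log2 fold change in this fit. It was at 2.54, 2.70, 3.79, 4.11 and 3.64 CPM in controls and at 8.54, 9.42, 5.11, 7.70 and 9.41 in nlsYAP5SA samples. No sample of one group reached the other, and the log2 fold change was 1.26 (SE 0.18, edgeR adjusted p = 0.000661). Those of Tlr9 (1.11) and Tlr13 (1.09) were close to it, and with the Y-linked level as a covariate Tlr9 (1.03) lay above Tlr7 (0.96).

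Tlr13, the sensor of bacterial ribosomal RNA, was at 1.47, 2.62, 2.96, 2.73 and 2.46 CPM in controls and at 4.38, 6.40, 3.51, 5.0 and 6.79 in nlsYAP5SA samples. The groups did not overlap, and the log2 fold change was 1.09 (SE 0.21, edgeR adjusted p = 0.00515).

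Tlr9, the CpG DNA sensor, was at 0.859, 0.822, 1.25, 0.840 and 0.945 CPM in controls and at 1.54, 2.35, 1.56, 2.26 and 2.48 in nlsYAP5SA samples. The lowest nlsYAP5SA sample lay above control replicate 3, the highest control, and the log2 fold change was 1.11 (SE 0.20, edgeR adjusted p = 0.00346).

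Tlr3, the double-stranded RNA sensor, was at 5.64, 6.11, 10.1, 8.86 and 11.1 CPM in controls and at 10.7, 11.0, 8.67, 10.5 and 10.9 in nlsYAP5SA samples. Control replicates 1 and 2 were low, the other 3 controls lay near the nlsYAP5SA range, and no nlsYAP5SA sample exceeded the highest control. The log2 difference was 0.31 (SE 0.17, edgeR adjusted p = 0.293), although Tlr3 had 138 to 259 estimated counts in each of the 13 samples, the most of any receptor.

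Tlr8 was close to the limit of detection. It had 0, 4, 5, 1 and 3 estimated counts in controls, 5, 16, 0, 9 and 12 in nlsYAP5SA samples and 2, 1 and 4 in C57BL/6 samples, and a count of 0 allows up to 3 counts. The groups overlapped through nlsYAP5SA replicate 3, and the filter on low counts kept the gene out of the test.

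By class, 3 of 5 surface receptors and 3 of the 4 endosomal receptors tested were called higher, with median log2 fold changes of 0.87 and 1.10. Every nlsYAP5SA sample lay above every control for 5 of the 9 receptors tested (Tlr2, Tlr6, Tlr7, Tlr9 and Tlr13), as it did for 6.49% of the 16875 genes that passed the low-count filter over all 3 groups, and no receptor lay wholly below the controls, as 3.47% of these genes did. Of the family genes outside the list, Tlr12 was not called and Tlr11 had too few counts for the test. Tlr12 had 21 to 37 estimated counts in controls and 10 to 21 in nlsYAP5SA samples, with a log2 difference of -0.78 (SE 0.23, edgeR adjusted p = 0.0529), and Tlr11 had 2 counts in 1 nlsYAP5SA sample and 0 in the other 12 samples.

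**Figure D2:**
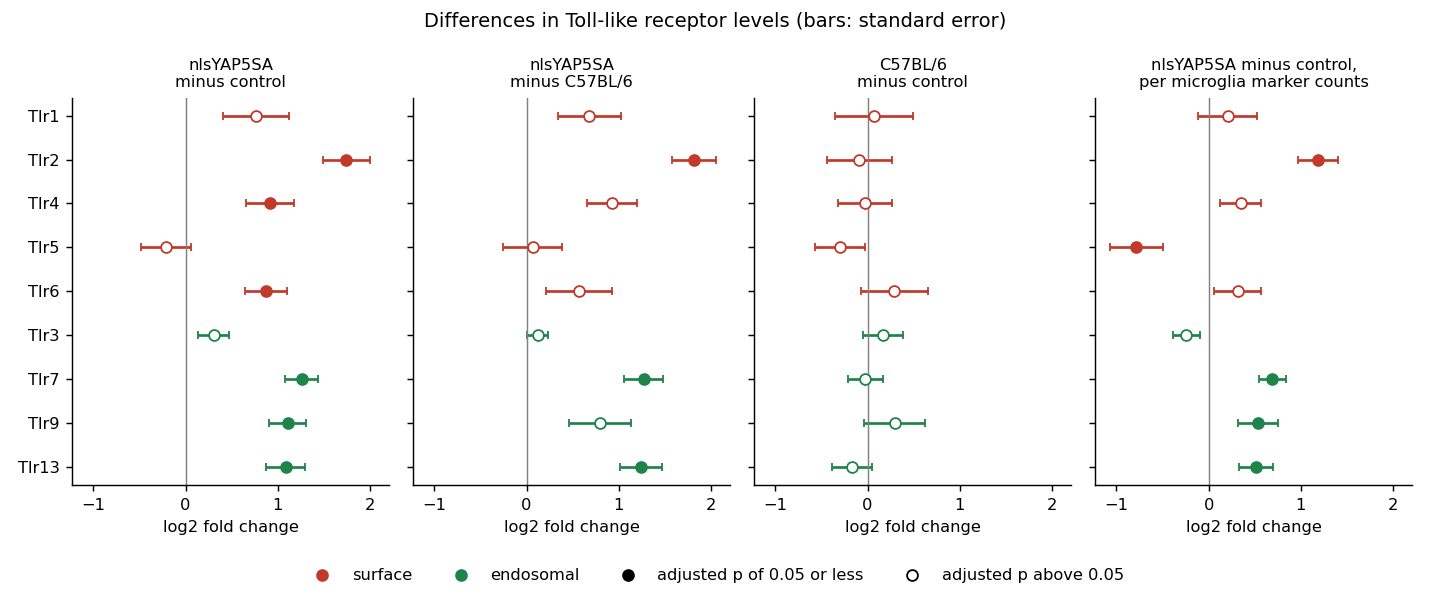
Log2 fold changes (x axis) with standard errors for the 9 Toll-like receptors tested (y axis) in 3 comparisons and, at the right, per microglia marker count; filled points had an edgeR adjusted p of 0.05 or less. Tlr2, Tlr7 and Tlr13 stand to the right of 0 and are filled in every panel with nlsYAP5SA samples, and the panel of C57BL/6 against control has 0 filled points.

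Fewer receptors, and fewer genes in all, were called when Y-linked reads were taken into account. With the Y-linked level as a covariate, 2 of 9 receptors were called, Tlr2 and Tlr7. In that fit 542 of 16315 genes (3.32%) were called in all, next to 1761 without the covariate. The log2 fold changes were 1.78 (SE 0.32) for Tlr2 and 0.96 (SE 0.20) for Tlr7. Differences between receptors were not tested. The log2 fold changes of the other 4 were 0.70 to 1.03, with edgeR adjusted p-values of 0.0602 (Tlr9), 0.133 (Tlr13), 0.315 (Tlr4) and 0.318 (Tlr6). In the 5 controls and 2 nlsYAP5SA samples with Y-linked reads, 1 of 9 receptors was called: Tlr2, with a log2 fold change of 1.76 (edgeR adjusted p = 0.0467). Tlr7 was at 0.93 (edgeR adjusted p = 0.0860), Tlr13 at 0.79, Tlr9 at 1.01, Tlr4 at 0.79 and Tlr6 at 0.69, in a comparison that called 334 genes.

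Among the nlsYAP5SA samples, the X-linked Tlr7 was at 5.11 and 7.70 CPM in the 2 with Y-linked reads and at 8.54 to 9.42 in the 3 without. The autosomal Tlr3 was at 8.67 and 10.5 against 10.7 to 11.0. These 2 of the 10 receptors did not overlap between the 2 kinds of sample, nor did 15.1% of the 16875 genes compared, a share near that of the receptors. The other X-linked receptors overlapped: Tlr13 was at 3.51 and 5.0 against 4.38 to 6.79, and Tlr8 at 0 and 0.391 against 0.226 to 0.753. Tlr2, on chromosome 3, was at 3.29 and 5.96 against 3.98 to 5.01, so the samples with Y-linked reads lay on both sides. These 5 samples were not tested against each other. The C57BL/6 sample without Y-linked reads (replicate 2) had Tlr7 at 3.02 and Tlr13 at 2.11, next to 3.07 and 3.81 and to 2.20 and 2.22 in the samples with them.

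Set against the microglia markers, whose summed counts were higher in nlsYAP5SA samples, 4 receptors were still higher, Tlr5 was lower and the others were not called. Here the summed counts of the 12 markers took the place of the library size. This shifted the median log2 fold change of all genes to -0.56, and 81.1% of 16315 genes were called in either direction, 2.51% higher and 78.6% lower, so that the adjusted p-values were lenient. Tlr2 had 1.70 to 4.49 counts per 1000 microglia marker counts in controls and 6.80 to 9.46 in nlsYAP5SA samples, without overlap, and a log2 fold change of 1.18 (SE 0.22, edgeR adjusted p = 0.000236). Tlr7 had 7.03 to 9.35 against 10.6 to 15.3 per 1000, also without overlap, and a log2 fold change of 0.69 (SE 0.15, edgeR adjusted p = 0.000589). The 12 markers themselves ran from -0.49 (P2ry12) to 0.77 (Ptprc) on this scale, 2 of them called higher and 2 lower, and the values of Tlr7, Tlr9 and Tlr13 lay within that range. For Tlr9 and Tlr13 the log2 fold changes were 0.53 (SE 0.22, edgeR adjusted p = 0.0310) and 0.51 (SE 0.18, edgeR adjusted p = 0.0165), with 4 of 5 nlsYAP5SA samples above every control. With the Y-linked level as a covariate 2 receptors were called on this scale, where 58.2% of all genes were called and 1.79% were called higher, Tlr2 (log2 1.28, edgeR adjusted p = 0.00801) and Tlr7 (0.46, adjusted p = 0.0365). In the samples with Y-linked reads alone, where 30.4% of all genes were called and 1.29% were called higher, 1 was called, Tlr2 (1.27, adjusted p = 0.0270), while Tlr7 was at 0.45 (adjusted p = 0.0895).

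Tlr4, Tlr6 and Tlr1 kept smaller log2 differences per microglia marker count, of 0.35, 0.32 and 0.21 (edgeR adjusted p = 0.161, 0.255 and 0.560). The level of Tlr3 was 15.6 to 26.4 per 1000 in controls and 16.6 to 18.7 in nlsYAP5SA samples, a log2 difference of -0.24 (SE 0.15, edgeR adjusted p = 0.135). Tlr5 had 1.36 to 2.47 per 1000 in controls and 0.712 to 1.52 in nlsYAP5SA samples, with overlap, and a log2 fold change of -0.78 (SE 0.29, edgeR adjusted p = 0.0180). This Tlr5 value stands beside the median of -0.56 over all genes on the same scale. Tlr12, outside the list, was also called lower per microglia marker count, at 2.29 to 3.80 per 1000 in controls and 0.720 to 1.61 in nlsYAP5SA samples, without overlap (log2 -1.32, SE 0.26, edgeR adjusted p = 0.000344). Of the 5 receptor calls on this scale, 3 ended when single mice were left out, and Tlr2 and Tlr7 stayed called without any single mouse. Tlr9 was not called without control replicates 1, 2, 4 or 5 or nlsYAP5SA replicates 2, 4 or 5 (adjusted p = 0.0526 to 0.0774), Tlr13 without nlsYAP5SA replicates 2 or 5 (0.0502 and 0.0512), and Tlr5 without control replicate 3 or nlsYAP5SA replicate 1 (0.0651 and 0.0529). Without control replicate 1, Tlr3 was called lower (log2 -0.33, adjusted p = 0.0448).

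The C57BL/6 mice served as a background for the controls. No receptor differed between them: 0 of 9 were called, in a comparison in which 0.169% of 16546 genes were called in either direction, 0.0484% higher and 0.121% lower, 0 of 9 had an unadjusted p of 0.05 or less, and the DESeq2 Wald test also called 0. Log2 differences, C57BL/6 minus control, ran from -0.29 (Tlr5, SE 0.27) to 0.29 (Tlr9, SE 0.33, and Tlr6, SE 0.36), and the lowest edgeR adjusted p was 0.9996. The Tlr9 and Tlr6 values rested on single mice: they were 0.63 and 0.60 without C57BL/6 replicate 1, and -0.03 and -0.27 without C57BL/6 replicate 3. Neither the Y-linked covariate nor the samples with Y-linked reads alone gave a called receptor. With 3 C57BL/6 mice the standard errors of the 9 receptors were 0.19 (Tlr7) to 0.42 (Tlr1), and differences of that order were not detectable.

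Against the C57BL/6 mice, the nlsYAP5SA samples showed higher Tlr2, Tlr7 and Tlr13, 3 of 9 receptors tested, where 6.38% of 16641 genes were called in either direction and 4.16% higher. This comparison shares the nlsYAP5SA samples with the one against controls. Tlr2 in C57BL/6 replicates 1 to 3 was at 1.39, 1.49 and 0.969 CPM, all below the nlsYAP5SA samples, and the log2 fold change was 1.82 (SE 0.24, edgeR adjusted p = 0.00210). Tlr7 was at 3.81, 3.02 and 3.07, and its log2 fold change was 1.27 (SE 0.21, edgeR adjusted p = 0.00727). Tlr13 was at 2.20, 2.11 and 2.22, and its log2 fold change was 1.24 (SE 0.23, edgeR adjusted p = 0.0119). The Tlr13 call ended without C57BL/6 replicate 1 (adjusted p = 0.0558). With the Y-linked covariate the same 3 receptors were called, where 5.01% of 16641 genes were called in either direction and 3.27% higher. Between the 2 nlsYAP5SA and 2 C57BL/6 samples with Y-linked reads 0 of 9 were called, where 47 genes were called in all, and the log2 differences were 1.96 for Tlr2, 0.89 for Tlr7 and 0.93 for Tlr13 (edgeR adjusted p = 0.147, 0.406 and 0.398).

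Tlr4 was at 1.61, 1.29 and 1.94 CPM in C57BL/6 samples, below all nlsYAP5SA samples, but its log2 difference of 0.93 was not called (SE 0.27, edgeR adjusted p = 0.0746). It was called without nlsYAP5SA replicate 3 (adjusted p = 0.0470) and by DESeq2's Wald test (adjusted p = 0.0241), which called 4 receptors. Tlr9 and Tlr6 varied more among these 3 mice than among the controls, at 0.538, 1.34 and 1.57 and at 0.448, 0.767 and 1.41. Their log2 differences from nlsYAP5SA were 0.80 (SE 0.33, edgeR adjusted p = 0.208) and 0.57 (SE 0.36, edgeR adjusted p = 0.409). Without C57BL/6 replicate 1 these were 0.47 and 0.27, and without C57BL/6 replicate 3 they were 1.11 and 1.12, not called in either case. Tlr1 at 0.68, Tlr3 at 0.12 and Tlr5 at 0.07 were not called either.

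**Figure D3:**
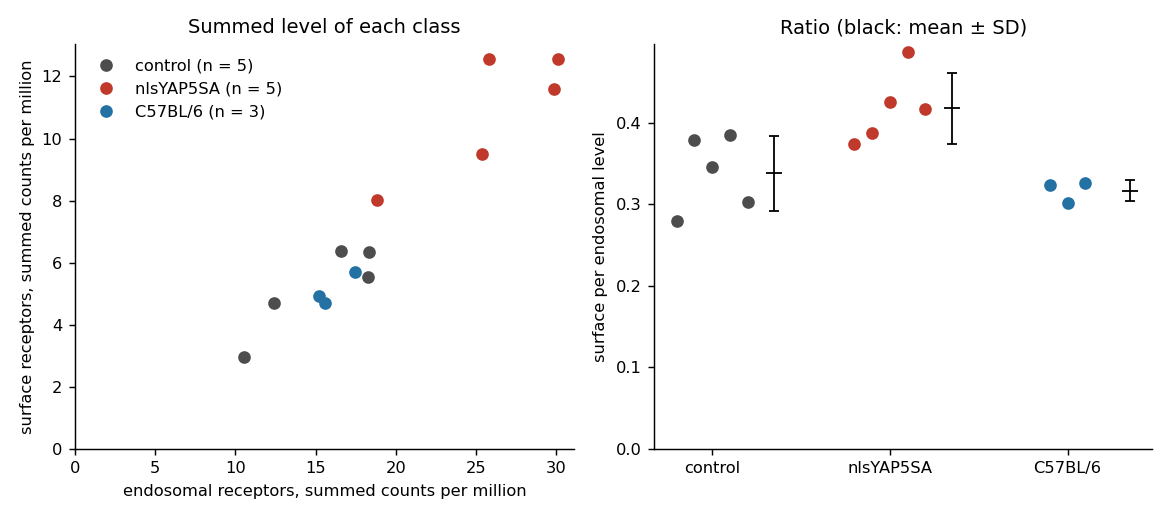
Left, summed level of the 5 surface receptors (y axis) against the 5 endosomal receptors (x axis), in CPM, each point being 1 sample. Right, the ratio of the 2 sums by group, with the mean ± SD in black; the nlsYAP5SA samples lie at 0.374 to 0.487 and overlap the controls at 0.280 to 0.385.

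Summed by class, both surface and endosomal receptors were higher in nlsYAP5SA samples. The 5 surface receptors together gave 5.18 ± 1.43 CPM in controls (SD, n = 5), 10.8 ± 2.0 in nlsYAP5SA (n = 5) and 5.11 ± 0.52 in C57BL/6 samples (n = 3). The 5 endosomal receptors gave 15.2 ± 3.6, 26.0 ± 4.6 and 16.1 ± 1.2. Surface sums of the nlsYAP5SA samples (8.02 to 12.6) lay above those of the controls (2.94 to 6.38), and endosomal sums (18.9 to 30.1) lay above theirs (10.5 to 18.3). In the 2 nlsYAP5SA samples with Y-linked reads the surface sums were 8.02 and 12.6 and the endosomal sums 18.9 and 25.8. The surface per endosomal ratio was 0.338 ± 0.046 in controls, 0.418 ± 0.044 in nlsYAP5SA and 0.317 ± 0.013 in C57BL/6 samples, and on the scale per kilobase of exon it was 0.393 ± 0.055, 0.502 ± 0.056 and 0.374 ± 0.011. The ranges of controls and nlsYAP5SA samples overlapped, through control replicates 2 and 4 and nlsYAP5SA replicate 1. The sums were dominated by a few genes, Tlr2 and Tlr4 on the surface side and Tlr3, Tlr7 and Tlr13 on the endosomal side, and no test was made on them.

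The genes that work with these receptors were read from 9 lists of 77 genes, of which 64 were tested against controls, 16 were called higher, 1 lower and 47 not called. Calls were 4 of 6 among co-receptors, 4 of 5 among endosomal proteases, 1 of 5 among adaptors and 2 of 15 among kinases and ubiquitin ligases, and the lists were not tested against each other. Per microglia marker count, 8 of the 17 called genes were still higher, 5 were not called and 4 were called lower, on a scale where 2.51% of all genes were called higher and 78.6% lower. The markers themselves ran from -0.49 to 0.77 on this scale. Of the 8, Ticam2 (0.60), Cd14 (0.55), Ly86 (0.52) and Irf5 (0.37) lay within that range, and Lbp, Ctss, Irf7 and Cxcl10 lay above it. With the Y-linked covariate, under which 3.32% of all genes were called, 8 genes of these lists were called, all higher: Cd14, Lbp, Ly86, Unc93b1, Ctss, Lgmn, Irf7 and Cxcl10. In the samples with Y-linked reads, where 1.97% of all genes were called, 7 of these were called, Unc93b1 being lost. The other 9 calls given below (Cd180, Ctsl, Ctsb, Ticam2, Irak4, Tab2, Irf5, Cd86 and Hspd1) were lost in both settings. The counts below can be read against the 10.8% of all genes called in this comparison.

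Of 6 co-receptors and ligand carriers, 4 were called higher and 0 lower. Cd14, which hands lipopolysaccharide to Tlr4 and also serves Tlr2, was at 1.06 to 1.76 CPM in controls (median 1.34) and 2.47 to 3.57 in nlsYAP5SA samples (median 3.15), a log2 fold change of 1.12 (SE 0.17, edgeR adjusted p = 0.00103). Lbp, the lipopolysaccharide-binding protein, rose by 1.40 on the log2 scale (SE 0.17, edgeR adjusted p = 0.000217), Ly86 by 1.11 and Cd180, which pairs with Ly86 in a Tlr4-like receptor, by 0.73. Per microglia marker count Cd180 was at 0.16 (edgeR adjusted p = 0.385). Ly96, the MD-2 partner that Tlr4 needs, was at 0.313 to 0.840 in controls and 0.362 to 0.796 in nlsYAP5SA samples, a log2 difference of -0.06 (SE 0.30, edgeR adjusted p = 0.939), and Cd36 was not called.

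Of the 5 chaperones and trafficking factors 1 was called. Unc93b1, which carries the nucleic acid receptors from the endoplasmic reticulum to endosomes, was at 10.05 to 11.53 CPM in controls and 13.6 to 19.8 in nlsYAP5SA samples, with a log2 fold change of 0.74 (SE 0.10, edgeR adjusted p = 0.000483). The endosomal proteases that trim these receptors were called higher in 4 of 5 cases. Ctss (cathepsin S) was at 24.7 to 29.0 in controls and 73.8 to 108.8 in nlsYAP5SA samples, a log2 fold change of 1.84 (SE 0.10, edgeR adjusted p = 3.12e-07). Lgmn (0.46), Ctsl (0.21) and Ctsb (0.16) rose by less, and Ctsk was not called. Per microglia marker count Unc93b1 was at 0.16 (edgeR adjusted p = 0.211), Lgmn at -0.10 and Ctss at 1.26 (edgeR adjusted p = 3.72e-07), while Ctsl at -0.35 (edgeR adjusted p = 0.0101) and Ctsb at -0.40 (edgeR adjusted p = 0.00454) were called lower but lay above the median of -0.56 over all genes on this scale.

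The adaptors that bind the TIR domain changed in 1 of 5 cases. Ticam2 (TRAM), which links Tlr4 to Ticam1, was called higher, with a log2 fold change of 1.19 (SE 0.25, edgeR adjusted p = 0.00759) from 10.96 to 21 estimated counts in controls and 21 to 44 in nlsYAP5SA samples. Myd88, the adaptor that all members but Tlr3 use, had a log2 difference of 0.32 (SE 0.11, edgeR adjusted p = 0.0833), Tirap of 0.19 (adjusted p = 0.559) and Ticam1 (TRIF), the adaptor of Tlr3, of 0.43 (adjusted p = 0.116). Among 15 kinases and ubiquitin ligases, Irak4 (0.70) and Tab2 (0.26) were called higher. Per microglia marker count Irak4 was at 0.15 (edgeR adjusted p = 0.469) and Tab2 at -0.30 (edgeR adjusted p = 0.00928), above the all-gene median of -0.56 on this scale.

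Of the 10 transcription factors 2 were called higher, Irf5 and Irf7. Irf5 was at 2.03 to 2.67 CPM in controls and 3.12 to 5.41 in nlsYAP5SA samples, a log2 fold change of 0.96 (SE 0.16, edgeR adjusted p = 0.00155). Irf7, which is itself induced by interferon, had 8 to 21 estimated counts in controls and 33 to 87 in nlsYAP5SA samples, a log2 fold change of 2.14 (SE 0.28, edgeR adjusted p = 0.000342). Irf3, which acts downstream of Ticam1, had a log2 difference of -0.32 (SE 0.11, edgeR adjusted p = 0.0896), with every nlsYAP5SA sample (6.79 to 8.35 CPM) below every control (8.63 to 12.1). Irf3 was named after its values were seen. Irf7 and Cxcl10 had mean counts below the level set for naming genes and were named after their values were seen. Of the 9 inhibitors 0 were called by edgeR and 0 by the DESeq2 Wald test, 2 had an unadjusted edgeR p of 0.05 or less (Irak3 and Nfkbia), and log2 differences ran from -0.39 (Sigirr) to 0.75 (Irak3). Irak3 passed the filter on low counts mainly through the nlsYAP5SA samples, with 4 of 5 above its limit and 1 of 5 controls.

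Of 14 outputs of the pathway, 3 had enough counts to be tested. Cxcl10, an interferon-induced chemokine, had 1 to 11 estimated counts in controls and 19 to 92 in nlsYAP5SA samples and was called higher, with a log2 fold change of 3.22 (SE 0.55, edgeR adjusted p = 0.00229). It passed the filter on low counts through the 5 nlsYAP5SA samples, with 1 of 5 controls above the limit, so its test depends on the difference itself, and its fold change over controls near 0 is not comparable with those of the other genes. The costimulator Cd86 rose by 0.90 (SE 0.17, edgeR adjusted p = 0.00509), but per microglia marker count it was at 0.33 (adjusted p = 0.0777), and Cd40 was not called. The other 11, among them Tnf, Il1b and Il6, were below the filter on low counts, and Ifnb1 was at 0 in all 13 samples. Among 8 genes for endogenous ligands, 1 of the 6 tested was called, Hspd1, which was lower by a small step (log2 -0.16, SE 0.05, edgeR adjusted p = 0.0388).

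**Figure D4:**
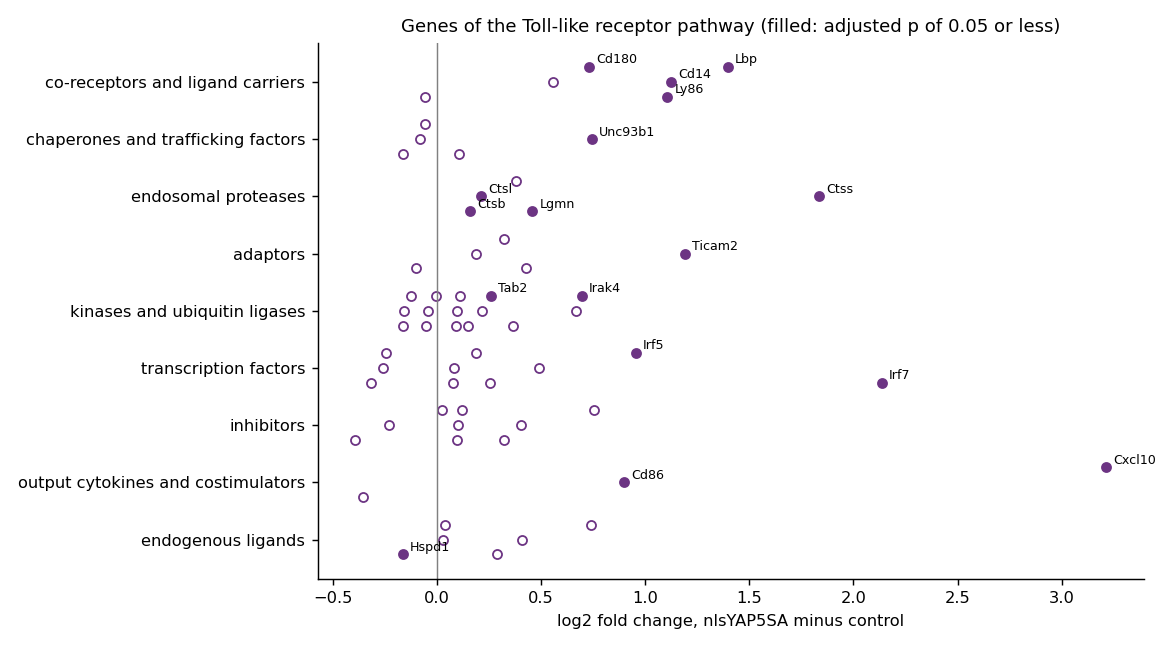
Log2 fold change, nlsYAP5SA minus control (x axis), of each tested gene in the 9 pathway lists (y axis), with genes at an edgeR adjusted p of 0.05 or less filled and named. Irf7 (2.14) and Ctss (1.84) lie furthest to the right after Cxcl10, which passed the filter on low counts through the nlsYAP5SA samples, and all 9 tested inhibitors are open points.

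Within the groups, the receptors with at least 50 counts on average were compared with 16874 genes. Each group's mean was first subtracted from log2 (CPM + 0.5). The result is a description over 13 samples, which differ in library depth and in the summed levels of cell type markers. Tlr2 and Tlr4 reached a mean of 50 counts only through the nlsYAP5SA samples, with means of 32 and 39.2 counts in controls and 100.8 and 68.8 in nlsYAP5SA samples. The closest genes were Anln (r = 0.94), P2ry12 (0.92) and Itga8 (0.92) for Tlr2, and Cflar (0.98), Adam9 (0.97) and Zfp971 (0.97) for Tlr4. For Tlr7 they were Col1a1 (0.95), Col1a2 (0.95) and Igf2 (0.94), for Tlr13 Abcd3 (0.94), Mtus1 (0.94) and Adgrl4 (0.92), and for Tlr3 Armcx4 (0.95), Rab3gap1 (0.92) and Trip4 (0.92). Each list holds the highest of 16874 values, so its r is raised by that choice. That the 5 receptors shared no gene in lists of 3 therefore says little about whether they varied together. Between the 5 receptors themselves, r ran from 0.59 (Tlr3 and Tlr13) to 0.84 (Tlr4 and Tlr13).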

How the data were processed

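The deposited table held RSEM estimated counts per gene, which the authors made from reads trimmed with cutadapt 1.5, aligned with STAR to GRCm38 (Ensembl release 86) and counted with RSEM 1.3.0. The submitters' processing notes give STAR as 2.2.2a, which is not the version in the authors' published methods, and also list SAMtools 1.8 and DESeq2. Strand handling is not given in the sources used here. Groups and replicate numbers came from the labels, which do not name the animals, so p-values measure the spread between these samples.

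Estimated counts were rounded and tested for pairs of groups with the quasi-likelihood test of edgeR 4.0.16 (R 4.3.3), TMM normalization and filterByExpr (minimum count 10, total 15), two-sided, with p-values adjusted by Benjamini-Hochberg across every tested gene and a threshold of 0.05, and the test was checked on simulated data. Levels are CPM with TMM over all 13 samples, and per kilobase of the GENCODE M21 exon union. Depth was 20871566 to 25524349 counts, and the limit given for a count of 0 covers counting error only. GENCODE gave symbols for 48349 of the 48795 identifiers.

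The receptors and lists were chosen with earlier results of these data known. Named were all 10 receptors, Tlr11, Tlr12, Cd14, Ly96, Unc93b1, Myd88, Tirap, Ticam1, Ticam2, Yap1 and Neurod6, up to 3 called genes per list averaging 50 counts or more, by size of change, and the 3 genes closest to each receptor. Genes in counts of 5 or fewer were named besides, after their values were seen. Alternatives were other scalings and filters, DESeq2 1.42.0, all groups in one fit, a replicate block, the Y-linked covariate and leaving out each mouse. Summing Tlr1 with Tlr6 and keeping only samples with Y-linked reads, and the Y-linked covariate per microglia marker count, were added after seeing the data.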

Additional observations from a re-analysis of the deposited data

Results flagged for a closer look

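In groups of 5 mice, the level of each receptor and named gene was searched for a sample whose gap to the rest was large for the group's range (Dixon's 95% limit of 0.71). Of 66 sets of values 4 had such a sample, and chance gives about 1 in 20. For Tlr3, nlsYAP5SA replicate 3 was at 8.67 CPM and the other 4 at 10.5 to 11.0. Unc93b1 and Irf5 were also low in that mouse, at 13.6 (others 18.4 to 19.8) and 3.12 (others 5.04 to 5.41). For Tlr9, control replicate 3 was at 1.25, above the other controls at 0.822 to 0.945. Without nlsYAP5SA replicate 3, 6 receptors were called against controls, as with it, and without control replicate 3 the number was 5, Tlr6 being lost.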

How the results depend on the processing

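Against controls, the count of 6 called receptors ran from 4 to 6 when each mouse was left out, was 5 with all 13 samples in one fit, 2 with the Y-linked covariate and 1 in the samples with Y-linked reads. The median log2 fold change over the 9 receptors tested, 0.91, was 0.52 under DESeq2's prior, which shrinks it by construction, and 0.86 to 1.06 without single mice. Pathway genes called were 17, with 13 to 21 without single mice, 8 with the Y-linked covariate and 7 in samples with Y-linked reads. Genes called in all were 1761, and 542 and 334 in the last 2 settings. Against C57BL/6 mice, 3 receptors were called, 2 to 4 without single mice, with a median of 0.80 that was 0.41 under the prior and 0.73 to 1.11 without single mice, and 1061 genes in all, 401 to 1757 without single mice and 1596 by DESeq2. In the samples with Y-linked reads this comparison called 0 receptors and 47 genes. C57BL/6 against control gave 28 genes, from 15 to 59 over the alternatives. Per microglia marker count, 5 receptors were called, 3 to 5 without single mice, 2 with the Y-linked covariate and 1 in the samples with Y-linked reads. No receptor called in a comparison changed direction under any alternative run, while uncalled ones, Tlr9 and Tlr6 among them, did so between C57BL/6 and control mice. Uncalled receptors also changed direction between nlsYAP5SA and C57BL/6 mice, Tlr5 from -0.23 to 0.26 and Tlr3 from -0.005 to 0.21. Per microglia marker count, Tlr1 ran from -0.11 to 0.40.

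Replicate numbers pair no mice by the labels, and same-numbered control and nlsYAP5SA samples did not deviate together (r = 0.31, -0.16, -0.31, -0.09 and 0.11). With the number as a replicate block, 4 receptors were called against controls, where 1239 of 16315 genes were called in all, next to 1761 without the block. Tlr4 and Tlr6 were lost (edgeR adjusted p = 0.0523 and 0.0776). Against C57BL/6 mice the block left 0 receptors called, where 47 of 16641 genes were called in all. Per microglia marker count it left 4, where 13166 of 16315 genes were called in all. The causes were not tested. Counts of 50 or fewer per sample limit what can be said of Tlr1, Tlr5, Tlr6 and Tlr8. Low counts also bear on Tlr9, with at most 53 in any sample, and on the controls of Tlr2 (15 to 40) and Tlr4 (21 to 55).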
